A study of Mus musculus with 18 samples.

Results

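The genes described here are 9 genes of GABAergic interneurons and of the Dlx lineage that makes them: the homeobox genes *Dlx1*, *Dlx2*, *Dlx5* and *Dlx6*, the noncoding RNA *Dlx6os1*, the transcription factors *Lhx6* and *Sp9*, and the GABA-synthesis enzymes *Gad1* and *Gad2*. They form a group by function, and were found by matching each symbol to its Ensembl identifier. They are 9 of 55153 genes in the RNA-seq count table and 9 of 54838 genes in the Ribo-seq count table, and all 9 had a count in each of the 18 libraries.

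Inhibitory interneurons of the cortex are born in the ganglionic eminences of the ventral forebrain, where *Gsx2* acts upstream of the Dlx genes, and they then migrate into the cortex. *Dlx1* and *Dlx2* lie side by side on a chromosome, as do *Dlx5* and *Dlx6*, and the encoded proteins drive the GABAergic program, including *Gad1* and *Gad2*. Striatal projection neurons come from the same ventral territory and also pass through a Dlx stage, whereas excitatory neurons arise from the pallial lineage in which *Emx1*-Cre acts.

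RNA-seq, which measures transcript levels, and Ribo-seq, which sequences the RNA fragments protected by ribosomes, were performed on cortices of mouse embryos at embryonic day 15.5, each labelled C57BL/6. The floxed *Fto* and *Mettl3* lines were of mixed strain background, which the labels do not show. Ctrl mice carried the label wild type, *F*-cKO mice had lost floxed exon 3 of *Fto* through *Emx1*-Cre, and *M*-cKO mice had lost floxed exons 2 and 3 of *Mettl3* through the same Cre. Fto removes the m6A mark from RNA and Mettl3 is the catalytic subunit that writes it, and the comparisons ask what loss of each does to the developing cortex. Each genotype had 3 libraries per assay, and the same 3 Ctrl libraries serve both comparisons with Ctrl.

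RNA-seq libraries held between 18504094 and 22592406 counted reads. Ribo-seq libraries were less even, from 10973699 in *F*-cKO replicate 2 to 35853227 in Ctrl replicate 1. Levels are given as deposited, in FPKM for RNA-seq and RPKM for Ribo-seq, which scale reads to gene length and depth. A gene was called higher or lower when its adjusted *P* in edgeR's quasi-likelihood test was below 0.05. These *P* values measure spread between libraries. They do not separate genotype from litter or line, as litter was not in the fits and each knockout is its own line. Cells outside the *Emx1* lineage keep the floxed genes intact, so the tissue of both knockouts is a mixture of deleted and undeleted cells.

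The targeted genes were examined first, as a partial check of the labels, because the deleted exons are a part of each gene and reads from the rest are still counted. RNA-seq FPKM of *Fto* was 10.8, 11.2 and 8.37 in Ctrl, 3.26, 7.56 and 2.43 in *F*-cKO, and 13.6, 12.1 and 13.4 in *M*-cKO. *F*-cKO replicate 2 was the highest of its group, although it lay below each Ctrl library. *Fto* RNA was lower in *F*-cKO (log2 fold change −1.21 ± 0.33 SE, adjusted *P* = 0.0298), a call lost without Ctrl replicate 1 (−1.15, 0.0803), Ctrl replicate 2 (−1.13, 0.0759), Ctrl replicate 3 (−1.33, 0.0553) or *F*-cKO replicate 1 (−1.02, 0.0714), and in DESeq2 (0.067). Without *F*-cKO replicate 2 the fold change was −1.84. In Ribo-seq *Fto* RPKM was 25.9, 22.0 and 17.6 in Ctrl and 3.91, 2.11 and 4.04 in *F*-cKO, a difference of −2.67 ± 0.25 with an adjusted *P* of 0.35 in edgeR and 5.33e-16 in DESeq2.

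*Mettl3* was higher in RNA-seq of *M*-cKO and lower in Ribo-seq. RNA-seq FPKM of *Mettl3* was 5.84, 6.43 and 5.07 in Ctrl, 6.30, 6.12 and 5.25 in *F*-cKO, and 8.61, 7.82 and 8.34 in *M*-cKO (log2 fold change of *M*-cKO to Ctrl 0.50 ± 0.09, adjusted *P* = 0.00221). Ribo-seq RPKM was 9.16, 9.25 and 9.93 in Ctrl and 6.78, 6.02 and 6.40 in *M*-cKO (−0.55 ± 0.09, adjusted *P* = 0.0157). In each assay the *M*-cKO libraries did not overlap the Ctrl libraries. The Ribo-seq call was lost without Ctrl replicate 1 (adjusted *P* = 0.0542), Ctrl replicate 2 (0.0804) or Ctrl replicate 3 (0.0624). *Fto* RNA was also higher in *M*-cKO than in Ctrl (0.36 ± 0.10, adjusted *P* = 0.0168).

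In Ctrl cortex, *Dlx1* was the most abundant of the 9 transcripts and *Dlx6* the least. Mean RNA-seq FPKM in Ctrl was 35.6 ± 0.766 (SD, n = 3) for *Dlx1*, 18.6 ± 0.433 for *Lhx6* and 12.7 ± 0.121 for *Dlx2*. These 3 are separated by more than their spread. The next 5 followed closely, with 6.76 ± 1.15 for *Dlx5*, 6.70 ± 0.259 for *Gad1*, 6.43 ± 0.209 for *Dlx6os1*, 5.64 ± 0.403 for *Gad2* and 4.77 ± 0.466 for *Sp9*, and neighbours in that order overlapped or nearly met. *Dlx6* stood last at 1.41 ± 0.579. In Ribo-seq the Ctrl order was flatter, from 8.54 ± 2.48 RPKM for *Dlx2* and 8.17 ± 2.23 for *Dlx1* to 3.40 ± 1.08 for *Sp9* and 1.03 ± 0.114 for *Dlx6*, and the libraries of neighbouring genes above *Sp9* overlapped. The tissue label was checked against pallial excitatory markers, whose 12 genes summed to between 854 and 947 FPKM in Ctrl, with *Neurod6* the most abundant. The late interneuron markers *Pvalb* and *Vip* had mean levels below 0.1 FPKM.

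Loss of *Mettl3* came with more RNA of each of the 9 genes. All 9 were higher in *M*-cKO than in Ctrl, where 29.6% of the 16968 genes tested were called in either direction and 15.5% were called higher. The median log2 fold change of the 9 was 1.02, beside −0.01 over all genes tested, and the differences ran from 0.22 for *Lhx6* to 1.498 for *Dlx6*. In bulk tissue, more cells of a type and more RNA per cell cannot be told apart.

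The Dlx transcription factors commit ventral progenitors to a GABAergic fate. *Dlx2* FPKM was 12.7, 12.8 and 12.6 in Ctrl and 31.3, 29.4 and 22.1 in *M*-cKO, a ratio of means of 2.17 (log2 fold change 1.11 ± 0.11, adjusted *P* = 6.84e-05). *Dlx1* was 34.7, 36.0 and 36.1 in Ctrl and 63.5, 57.9 and 48.8 in *M*-cKO (0.66 ± 0.09, 0.000258). *Dlx5* was 7.75, 7.02 and 5.50 in Ctrl and 16.3, 15.5 and 10.7 in *M*-cKO (1.06 ± 0.16, 0.000795). For these 3 genes every *M*-cKO library lay above every Ctrl library, and *M*-cKO replicate 3 was the lowest of its group. *Dlx6* was 2.01, 0.854 and 1.37 in Ctrl and 4.14, 5.07 and 2.89 in *M*-cKO (1.498 ± 0.28, 0.0025). *Dlx6os1*, also called Evf2, a long noncoding RNA of the *Dlx5*/*Dlx6* locus, was 6.67, 6.28 and 6.34 in Ctrl and 15.7, 14.5 and 9.32 in *M*-cKO (1.02 ± 0.15, 0.000679). The *M*-cKO libraries were again the higher in both genes. *Dlx6* lies wholly within *Dlx6os1*, sharing 4637 bases on the genome, and the library kit did not record strand, so reads of the pair may not be told apart.

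The transcription factors that act after the Dlx genes differed by unequal amounts. *Sp9*, a zinc finger factor needed for ventral forebrain neurons, was 4.34, 5.26 and 4.72 FPKM in Ctrl and 10.8, 11.3 and 8.63 in *M*-cKO (log2 fold change 1.10 ± 0.11, adjusted *P* = 7.77e-05). *Lhx6*, a LIM homeobox factor of interneurons from the medial ganglionic eminence, was 18.2, 19.1 and 18.6 in Ctrl and 23.5, 21.2 and 21.0 in *M*-cKO (0.22 ± 0.06, 0.0200). Both genes were higher in 3 of 3 *M*-cKO libraries than in every Ctrl library. The call for *Lhx6* was lost without Ctrl replicate 1 (0.20, adjusted *P* = 0.0788) and without *M*-cKO replicate 1 (0.18, 0.106), which left 8 of the 9 genes called.

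Both enzymes that make GABA from glutamate were higher. *Gad1* FPKM was 6.78, 6.41 and 6.92 in Ctrl and 11.03, 10.6 and 8.28 in *M*-cKO (log2 fold change 0.57 ± 0.10, adjusted *P* = 0.00161). *Gad2* was 6.03, 5.22 and 5.66 in Ctrl and 13.2, 11.8 and 7.40 in *M*-cKO (0.93 ± 0.17, 0.00198). Neither gene's groups overlapped, and *M*-cKO replicate 3 was the lowest of its group in both. Over the 9 genes together, 9 had every *M*-cKO library above every Ctrl library, a pattern found in 19.9% of 20500 genes. Their summed level was 99.3, 98.9 and 97.8 FPKM in Ctrl and 190 (189.56), 177 and 139 in *M*-cKO.

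**Figure D1:**
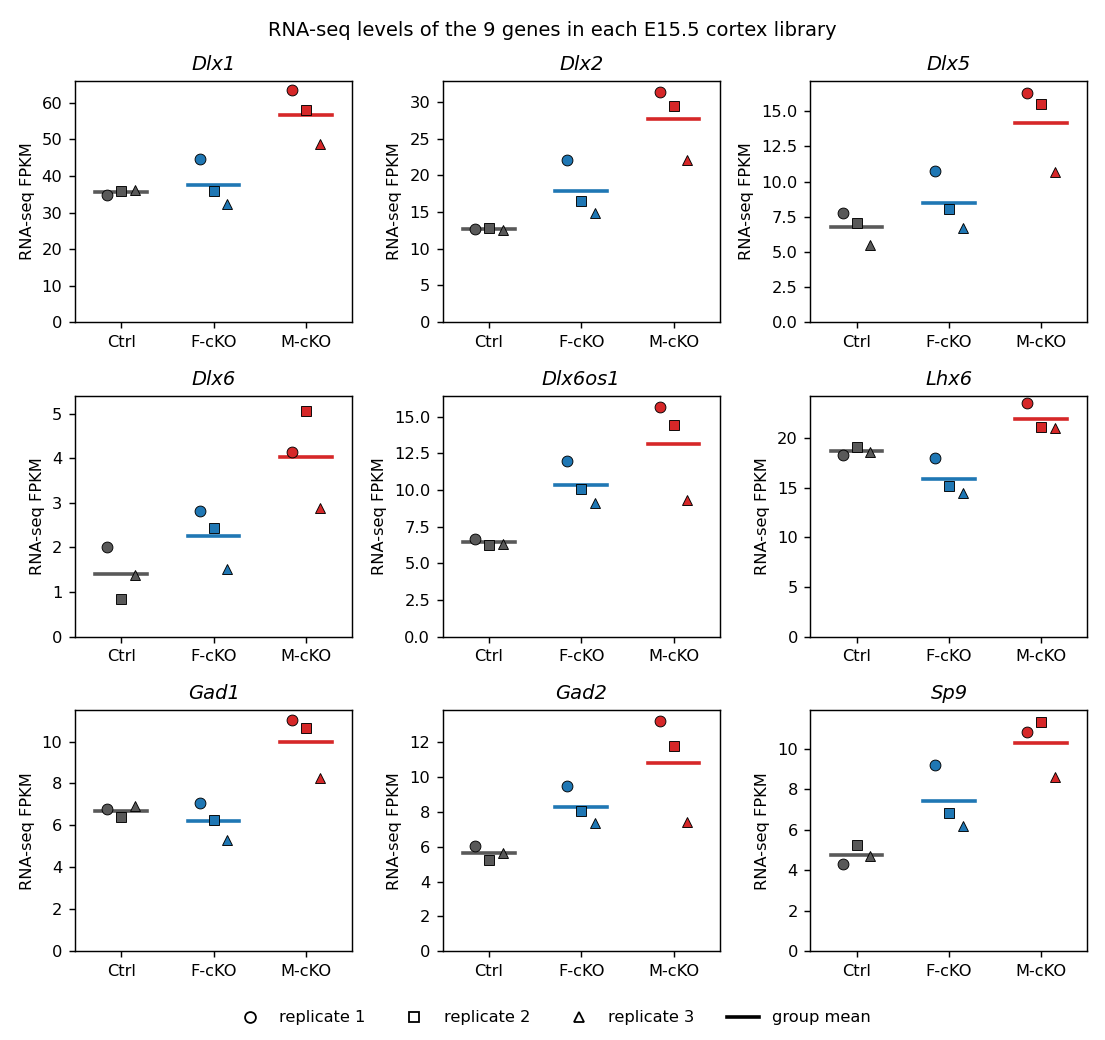
RNA-seq level (FPKM, vertical axis from 0) of each of the 9 genes in the 3 libraries of Ctrl, *F*-cKO and *M*-cKO. Each symbol is a library and each line a group mean. In all 9 panels the *M*-cKO libraries lie above the Ctrl libraries.

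Genes known to act before or beside the Dlx genes moved in the same direction in part. Of 9 tested patterning factors of the ganglionic eminence, 6 were higher and 1 was lower in *M*-cKO RNA, with a median log2 fold change of 1.14. *Nkx2-1*, which specifies the medial eminence, was 0.816, 0.332 and 0.526 FPKM in Ctrl and 5.18, 3.52 and 2.80 in *M*-cKO (2.76 ± 0.30, adjusted *P* = 0.000108). *Six3*, a forebrain homeobox factor, was 0.541, 0.736 and 0.402 in Ctrl and 4.02, 3.36 and 2.22 in *M*-cKO (2.4965 ± 0.25, 6.05e-05). *Gsx2*, which acts upstream of *Dlx2* in the lateral eminence, differed by 1.66 ± 0.23 and *Lhx8*, a factor of cholinergic and medial eminence neurons, by 3.50 ± 0.60. The libraries of the groups did not overlap for these 4 genes, which kept their calls without any 1 library. *Otx2* was higher by 0.92 and *Olig1*, an oligodendrocyte lineage factor, lower (−0.78). *Otx2* lost its call without Ctrl replicate 1 (0.69), Ctrl replicate 3 (0.75), *M*-cKO replicate 2 (0.93) or *M*-cKO replicate 3 (0.85), and its difference was 1.48 without Ctrl replicate 2. *Olig1* lost its call without any library other than Ctrl replicate 2, and was at −0.52 without Ctrl replicate 3. Calls were also gained, with *Olig2* lower without Ctrl replicate 2 (−0.87, adjusted *P* = 0.00187) and *Gsx1* higher without *M*-cKO replicate 3 (1.46, 0.0301).

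Among transcription factors of maturing interneurons, 5 of 12 were higher and 2 were lower in *M*-cKO RNA, with a median of 0.16. *Sox6* (0.65 ± 0.10), *Sp8* (0.72 ± 0.17), *Nr2f2* (0.83 ± 0.14) and *Npas3* (0.68 ± 0.10) were among those higher. *Npas1* was lower (−0.68 ± 0.16), and *Zeb2* was lower (−0.22), a call lost without Ctrl replicate 1 (adjusted *P* = 0.0521), Ctrl replicate 3 (0.0872), *M*-cKO replicate 2 (0.0585) or *M*-cKO replicate 3 (0.0515). The most abundant gene of the list, *Lmo3*, was not called.

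Genes that carry and break down GABA were also measured. *Slc32a1*, the transporter that loads GABA into synaptic vesicles, was 8.20, 7.92 and 8.27 FPKM in Ctrl and 15.6, 15.4 and 13.5 in *M*-cKO (log2 fold change 0.86 ± 0.08, adjusted *P* = 5.73e-05), with no overlap. *Abat*, the GABA-degrading transaminase, was higher by 0.64 ± 0.12. *Slc6a11*, a GABA uptake transporter, was lower (−0.57 ± 0.14, 0.0107).

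Genes of interneuron migration and subtype did not move as 1 group, with 4 higher and 2 lower of 9 tested. *Sst*, the somatostatin neuropeptide of an interneuron subtype, was 65.3, 61.2 and 49.6 FPKM in Ctrl and 128, 139.96 and 111 in *M*-cKO (log2 fold change 1.10 ± 0.11, adjusted *P* = 5.84e-05). *Npy*, a neuropeptide partly shared with that subtype, was 64.5, 66.1 and 99.7 in Ctrl and 28.6, 34.0 and 28.7 in *M*-cKO (−1.34 ± 0.16, 0.000163). The groups of these genes did not overlap, and the genes differed in opposite directions. The chemokine receptor *Ackr3* was higher by 0.52 ± 0.09 and the calcium-binding protein *Calb2* lower (−0.68 ± 0.12). The calls of *Erbb4* (0.35) and *Calb1* (0.41) were lost, leaving 2 higher, without Ctrl replicate 2, Ctrl replicate 3, *M*-cKO replicate 1 or *M*-cKO replicate 2. Without Ctrl replicate 1, *Erbb4* alone of the pair was lost (adjusted *P* = 0.0729).

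Markers of other cell types were measured beside these genes. Of 13 striatal neuron markers, 11 were higher and 1 was lower in *M*-cKO RNA, with a median log2 fold change of 1.66. *Isl1*, a factor of striatonigral neurons, was 0.857, 0.393 and 0.486 FPKM in Ctrl and 5.38, 4.84 and 2.09 in *M*-cKO (2.80 ± 0.36, adjusted *P* = 0.000253). *Ebf1* (2.40 ± 0.26), the neuropeptide gene *Tac1* (2.81 ± 0.39) and *Meis2* (0.50 ± 0.08) were among the others. Each library of *M*-cKO exceeded each Ctrl library for these 4. The list summed to 50.8, 50.5 and 49.9 FPKM in Ctrl, 73.2, 63.3 and 54.7 in *F*-cKO, and 75.7, 83.65 and 61.8 in *M*-cKO, and *Meis2* was its most abundant gene. No gene of the list had a mean below 0.1 FPKM. The list of higher calls held 10 or 11 genes whichever library was left out, and the lower call, for *Ppp1r1b*, was lost without Ctrl replicate 3 (adjusted *P* = 0.0527) or *M*-cKO replicate 1 (0.0514). Its part in the result for the 9 genes was not tested.

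The eminence patterning list summed to 45.7, 32.2 and 46.1 FPKM in Ctrl, 39.6, 37.8 and 29.6 in *F*-cKO, and 57.9, 49.6 and 45.0 in *M*-cKO, with overlap between *M*-cKO and Ctrl. Hypothalamus markers were scarce, at 1.47, 3.43 and 1.15 FPKM in Ctrl and 6.92, 5.26 and 3.92 in *M*-cKO, with *Pomc* the most abundant and *Sim1*, *Nr5a1*, *Hmx2* and *Hmx3* below 0.1 FPKM. *Otp* (1.95 ± 0.60) and *Fezf1* (2.20 ± 0.65) were higher, 2 of 3 tested, and both calls were lost without Ctrl replicate 1, Ctrl replicate 3, *M*-cKO replicate 1 or *M*-cKO replicate 2. Without Ctrl replicate 2 all 3 were called, with *Otp* at 3.02 and *Fezf1* at 3.97. The part of these cells in the result was not tested.

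Pallial excitatory markers gave 4 higher and 1 lower of 12, with a median log2 fold change of 0.20. Their sum was 938, 947 and 854 FPKM in Ctrl, 1028, 1081 and 1104 in *F*-cKO, and 1104, 1121 and 1136 in *M*-cKO, with *Neurod6* the most abundant. *Neurod2* (0.52 ± 0.06), *Tbr1* (0.45 ± 0.06) and *Fezf2* (0.52 ± 0.07) were higher, and *Neurod6* (0.17 ± 0.06, 0.0399) lost its call without any library other than *M*-cKO replicate 3. Of 5 tested thalamus markers, 3 were higher and 1 was lower, with sums of 99.4, 102 and 85.7 FPKM in Ctrl and 109.7, 109 and 123 in *M*-cKO, led by *Lhx2*, itself also a cortical gene. *Lhx2* (0.29) and *Lef1* (0.499) each lost their calls without Ctrl replicate 3 (adjusted *P* = 0.0755 and 0.0821) or *M*-cKO replicate 3 (0.0593 and 0.0767), and *Lef1* also without *M*-cKO replicate 2 (0.0770). Lists for choroid plexus, meninges, microglia and endothelium had 5, 5, 6 and 6 genes tested, of which 0 were called by edgeR or DESeq2 and 0, 0, 1 and 1 had an unadjusted *P* below 0.05. Without Ctrl replicate 2 all 5 choroid plexus genes were called higher. Without *M*-cKO replicate 1, 2 meningeal and 1 endothelial gene were called higher, and without *M*-cKO replicate 3, 1 microglial and 1 endothelial gene lower. The choroid plexus sum, led by *Ttr*, ranged from 69.3 in Ctrl replicate 1 to 799.7 in Ctrl replicate 2 and from 432 to 590.5 in *M*-cKO. The part of these cell types in the result was not tested.

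**Figure D2:**
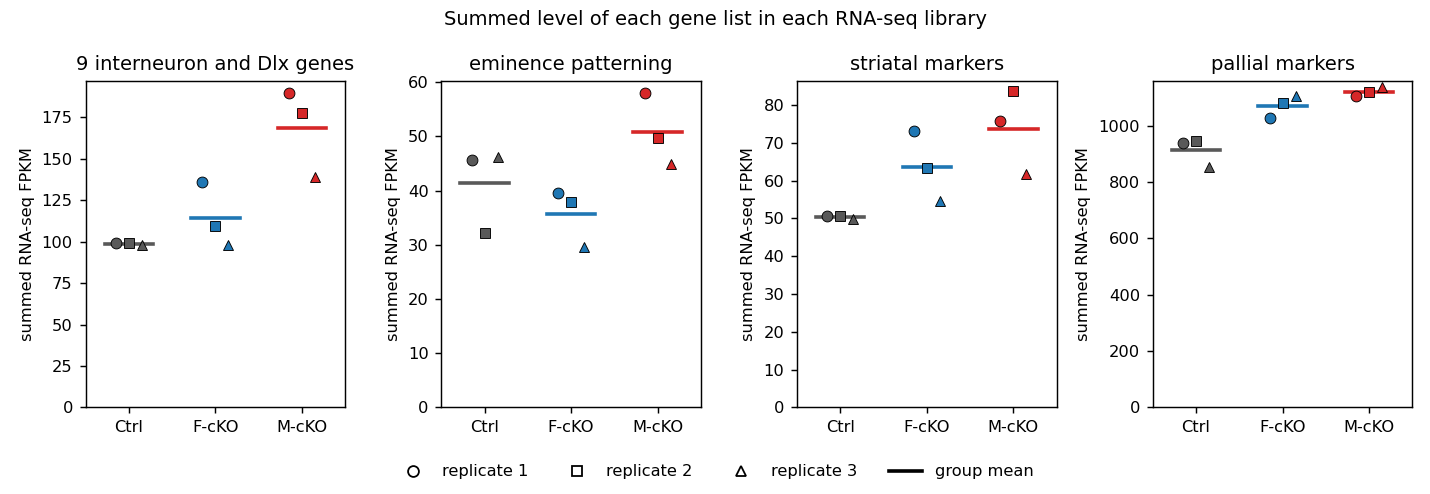
Summed RNA-seq level (FPKM, vertical axes from 0) of the 9 genes, of 10 ganglionic eminence patterning factors, of 13 striatal markers and of 12 pallial markers in each library. Symbols are libraries and lines are group means. The sum of the 9 genes lies between 97.8 and 99.3 in Ctrl and between 139 and 189.56 in *M*-cKO.

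Loss of *Fto* came with more RNA of 4 of the 9 genes. *Dlx2*, *Dlx6os1*, *Gad2* and *Sp9* were higher in *F*-cKO than in Ctrl and 0 of the 9 were called lower by edgeR, where 21.1% of the 16944 genes tested were called and 11.5% were called higher. The median log2 fold change of the 9 was 0.48, beside −0.01 over all genes tested. At an unadjusted *P* below 0.05 there were 5 of the 9 and 6044 of all genes tested, and DESeq2 called 5 of the 9 and 3748 of all, the additional gene in both being *Lhx6* in the lower direction.

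*Dlx6os1* showed the highest fold change, with 11.97, 10.05 and 9.12 FPKM in *F*-cKO against 6.67, 6.28 and 6.34 in Ctrl (0.68 ± 0.10, adjusted *P* = 0.00371). *Gad2* was 9.50, 8.05 and 7.38 in *F*-cKO against 6.03, 5.22 and 5.66 in Ctrl (0.55 ± 0.10, 0.007). Both kept their calls without any 1 library. *Sp9* was 9.20, 6.85 and 6.17 in *F*-cKO against 4.34, 5.26 and 4.72 in Ctrl (0.62 ± 0.14, 0.0161). *Dlx2* was 22.1, 16.5 and 14.9 in *F*-cKO against 12.7, 12.8 and 12.6 in Ctrl (0.48 ± 0.13, 0.0275). In these 4 genes each *F*-cKO library lay above each Ctrl library, a pattern of 19.1% of 20500 genes, and *F*-cKO replicate 1 was the highest.

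The calls of *Sp9* and *Dlx2* were each lost in more than 1 refit that left a library out. Over all genes, calls were 3576 with all libraries, and 2428, 2695 and 1543 without Ctrl replicate 1, 2 and 3. Without *F*-cKO replicate 2 they were 1960. *Sp9* lost its call without Ctrl replicate 1 (0.56, adjusted *P* = 0.0539) or Ctrl replicate 3 (0.62, 0.0548). *Dlx2* lost its call without Ctrl replicate 1 (0.49, 0.0691), Ctrl replicate 2 (0.48, 0.0650), Ctrl replicate 3 (0.47, 0.0837) or *F*-cKO replicate 2 (0.53, 0.0521), and its difference was 0.30 without *F*-cKO replicate 1. The count of called genes was therefore 2 without Ctrl replicate 1 or Ctrl replicate 3 and 3 without Ctrl replicate 2 or *F*-cKO replicate 2.

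The other 5 genes did not pass the test in *F*-cKO RNA. *Lhx6* was 17.96, 15.1 and 14.5 FPKM in *F*-cKO against 18.2, 19.1 and 18.6 in Ctrl (−0.25 ± 0.08, adjusted *P* = 0.0577). Each *F*-cKO library was below each Ctrl library, a pattern of 3547 of 20500 genes and of no other gene of the 9. Without *F*-cKO replicate 1 the difference was −0.34 with an adjusted *P* of 0.0112. *Gad1* was 7.05, 6.27 and 5.30 in *F*-cKO (−0.12 ± 0.10, 0.404) and *Dlx1* 44.7, 35.9 and 32.3 (0.07 ± 0.10, 0.673), both overlapping Ctrl. *Dlx5* was 10.8, 8.06 and 6.71 (0.32 ± 0.18, 0.233) and *Dlx6* 2.82, 2.43 and 1.52 (0.66 ± 0.32, 0.167), again with overlap. The summed level of the 9 genes was 136, 109 and 97.9 FPKM in *F*-cKO, with *F*-cKO replicate 3 within the Ctrl range.

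Related lists were mixed in *F*-cKO RNA. Of 8 tested eminence patterning factors, 3 were higher and 2 lower. *Six3* was 2.62, 2.03 and 1.37 FPKM in *F*-cKO (1.82 ± 0.27, adjusted *P* = 0.00409), each library above Ctrl, and kept its call without any 1 library. *Gsx2* (0.85, 0.0348) and *Nkx2-1* (1.4957, 0.0247) were higher and *Olig1* (−1.48, 0.0135) and *Olig2* (−0.97, 0.044) lower, and 0 of these 4 were called without Ctrl replicate 3. *Nkx2-1* was also lost without Ctrl replicate 2 (0.0708) or *F*-cKO replicate 2 (0.0897). *Gsx2* kept its call when *F*-cKO replicate 3 was left out and *Olig2* when Ctrl replicate 2 was left out, and each was lost without any other library, with *Olig2* at −0.64 without Ctrl replicate 3. Interneuron transcription factors gave 3 higher and 3 lower of 12. *Sox6* was higher by 0.79 ± 0.11 and *Npas1* lower (−1.004 ± 0.14), and both kept their calls without any 1 library. *Sp8* (0.44) and *Maf* (−0.34) each lost theirs without Ctrl replicate 3 (adjusted *P* = 0.134 and 0.117) and without *F*-cKO replicate 2 (0.0582 and 0.11), and each was lost without 3 further libraries. The list as a whole gave 1 higher and 1 lower without either of Ctrl replicate 3 and *F*-cKO replicate 2.

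Among GABA handling genes *Slc6a11* was lower in *F*-cKO RNA (−1.06 ± 0.18, adjusted *P* = 0.00544) and *Slc32a1* and *Abat* were not called, although *Abat* was higher without Ctrl replicate 1 (0.43, 0.0347). Among 9 migration and subtype genes 4 were called, each of them lower, and without *F*-cKO replicate 3 there was also 1 higher. *Npy* was 36.8, 30.5 and 16.9 FPKM in *F*-cKO (−1.46 ± 0.26, 0.00591), below each Ctrl library. *Calb2* (−0.56 ± 0.11) and the serotonin receptor gene *Htr3a* (−0.99 ± 0.19) were lower as well. *Cxcr4*, the chemokine receptor that guides migrating interneurons, was lower (−0.28, 0.031), a call kept when Ctrl replicate 3 was left out and lost without each other library (adjusted *P* 0.0535 to 0.0969).

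Of 13 striatal markers 4 were higher in *F*-cKO RNA, with a median of 0.85, and *Meis2* (0.39 ± 0.06, adjusted *P* = 0.00459) kept its call without any 1 library. *Isl1* (1.80), *Ebf1* (1.64) and *Foxp2* (0.47) were also higher. The striatal count was 2 without Ctrl replicate 2, Ctrl replicate 3 or *F*-cKO replicate 2, and 7 without *F*-cKO replicate 3. Pallial markers gave 6 higher of 12, among them *Pax6* (0.71 ± 0.14) and *Tbr1* (0.55 ± 0.06), and 2 without *F*-cKO replicate 2. Thalamus markers gave 2 higher of 5, *Lhx9* (0.82) and *Slc17a6* (0.37), 1 when any Ctrl library was left out and 0 without *F*-cKO replicate 2. Endothelial *Cldn5* (−0.63 ± 0.09) and *Esam* (−0.57 ± 0.11) were lower, 2 of 6, and the list summed to 51.3, 55.3 and 55.3 FPKM in Ctrl and 43.1, 37.8 and 37.8 in *F*-cKO. Of 5 meningeal markers 3 were lower, with sums of 9.02, 16.6 and 9.002 in Ctrl and 5.68, 2.27 and 6.92 in *F*-cKO. Without Ctrl replicate 2, Ctrl replicate 3 or *F*-cKO replicate 2 the meningeal count was 0, and without *F*-cKO replicate 3 it was 5. Choroid plexus, hypothalamus and microglia markers, with 3, 3 and 6 genes tested, had 0 called by edgeR, 0, 0 and 1 with an unadjusted *P* below 0.05, and 0, 0 and 1 called by DESeq2. Without Ctrl replicate 2 these were 2 higher for choroid plexus and 1 higher for hypothalamus, and without *F*-cKO replicate 1 there were 1 microglial and 1 pallial gene lower. The part of these cell types in the result was not tested.

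The knockouts were also compared with each other. RNA of 7 of the 9 genes was higher in *M*-cKO than in *F*-cKO, where 27.4% of 16802 genes were called and 13.1% were called higher. *Gad1* (0.68 ± 0.12, adjusted *P* = 0.00287), *Lhx6* (0.46 ± 0.08, 0.00344) and *Dlx1* (0.58 ± 0.12, 0.0059) kept their calls without any 1 library. *Dlx2* (0.62 ± 0.15), *Dlx5* (0.73 ± 0.18), *Dlx6* (0.83 ± 0.25) and *Sp9* (0.46 ± 0.14) were called with adjusted *P* values from 0.0125 to 0.034. *Dlx6os1* (0.33 ± 0.16, 0.157) and *Gad2* (0.37 ± 0.17, 0.14) were not called. Among listed genes, *Slc32a1* (0.77 ± 0.15), *Sst* (1.05 ± 0.20) and *Nkx2-1* (1.25 ± 0.31) were also higher in *M*-cKO, and each kept its call without any 1 library.

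Markers of other cell types also differed between the knockouts in RNA. In *M*-cKO against *F*-cKO, pallial markers gave 2 higher and 5 lower of 12, striatal markers 3 higher and 1 lower of 13, and thalamus markers 1 lower of 5. Higher calls numbered 2 of 5 for choroid plexus, 2 of 5 for meninges, 2 of 6 for endothelium and 1 of 6 for microglia. Without *F*-cKO replicate 2 or *M*-cKO replicate 2, the lower pallial count was 2, the higher striatal count 1, the choroid plexus count 1, and the meningeal, endothelial and microglial counts 0. Without *M*-cKO replicate 3 the choroid plexus count was again 1 and those of meninges, endothelium and microglia 0, and without *M*-cKO replicate 1 the lower pallial count was 2 and the meningeal count 4. Without *F*-cKO replicate 1 the higher striatal count was 9 and the choroid plexus count 4. The higher pallial count was 1 whichever library was left out, the lower striatal call was kept only without *F*-cKO replicate 3 or *M*-cKO replicate 2, and the microglial count was also 0 without *F*-cKO replicate 3. The part of these cell types in the difference of the 9 genes was not tested.

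The count of 7 moved with single libraries. It was 3 without *F*-cKO replicate 2, when *Dlx2* (adjusted *P* = 0.0553), *Dlx5* (0.0587), *Dlx6* (0.0714) and *Sp9* (0.117) were lost, and 4 without *M*-cKO replicate 2, when *Dlx5* (0.0535), *Dlx6* (0.121) and *Sp9* (0.11) were lost. It was 5 without *F*-cKO replicate 3 or *M*-cKO replicate 1, each of which took the calls of *Dlx6* (0.0675 and 0.0679) and *Sp9* (0.0788 and 0.0845). Without *M*-cKO replicate 3 all 9 were called. Over all genes, calls were 2767 without *F*-cKO replicate 2, 3080 without *M*-cKO replicate 2 and 3840 without *F*-cKO replicate 3. They were 3252 without *M*-cKO replicate 1 and 3394 without *M*-cKO replicate 3, beside 4599 with all libraries.

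Ribosome footprints were higher for 5 of the 9 genes without *Mettl3*. In *M*-cKO against Ctrl these were *Dlx1*, *Dlx6*, *Lhx6*, *Gad2* and *Sp9*, where 14.6% of 14314 genes were called and 7.13% were called higher. The median log2 fold change of the 9 was 1.19, beside 0.00 over all genes tested, and 9 had an unadjusted *P* below 0.05, as did 4876 of the 14314 genes. For 8 of the 9, the exception being *Dlx6os1*, every *M*-cKO library lay above every Ctrl library, a pattern of 16.4% of 21964 genes.

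*Lhx6* footprints were 8.10, 6.78 and 6.83 RPKM in Ctrl and 10.9, 11.4 and 11.5 in *M*-cKO (log2 fold change 0.65 ± 0.11, adjusted *P* = 0.0163). *Sp9* footprints were 4.62, 3.00 and 2.58 in Ctrl and 14.995, 18.4 and 5.84 in *M*-cKO (1.96 ± 0.43, 0.028). *Lhx6* was even across the *M*-cKO libraries, whereas *M*-cKO replicate 3 was far below the other *M*-cKO libraries for *Sp9*. The same library was lowest for *Dlx1*, at 22.4, 21.6 and 10.9 in *M*-cKO against 10.7, 7.02 and 6.75 in Ctrl (1.18 ± 0.31, 0.0423). It was also lowest for *Dlx6*, at 5.55, 5.79 and 1.94 against 1.15, 0.919 and 1.02 (2.12 ± 0.42, 0.0208). *Gad2* was 19.0, 16.8 and 8.09 in *M*-cKO against 7.81, 5.51 and 5.54 in Ctrl (1.24 ± 0.32, 0.0409). In each of these genes the *M*-cKO libraries remained above Ctrl.

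The other 4 genes did not pass the adjusted threshold in *M*-cKO footprints. *Dlx2* was 10.6, 5.79 and 9.24 RPKM in Ctrl and 22.1, 24.9 and 10.9 in *M*-cKO (1.19 ± 0.35, adjusted *P* = 0.0567). *Dlx5* was 9.32, 6.63 and 5.62 in Ctrl and 17.9, 31.8 and 9.71 in *M*-cKO (1.49 ± 0.43, 0.055). *Gad1* was 10.04, 6.08 and 6.69 in Ctrl and 13.6, 11.6 and 10.98 in *M*-cKO (0.68 ± 0.19, 0.0554). In these 3 genes the groups met closely at their nearest libraries without overlapping. *Dlx6os1*, for which no protein is known, was 8.27, 5.61 and 6.46 in Ctrl and 17.7, 9.39 and 7.23 in *M*-cKO (0.76 ± 0.31, 0.134), with overlap. Summed footprints of the 9 genes were 70.6, 47.3 and 50.7 RPKM in Ctrl and 144, 152 and 77.2 in *M*-cKO.

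**Figure D3:**
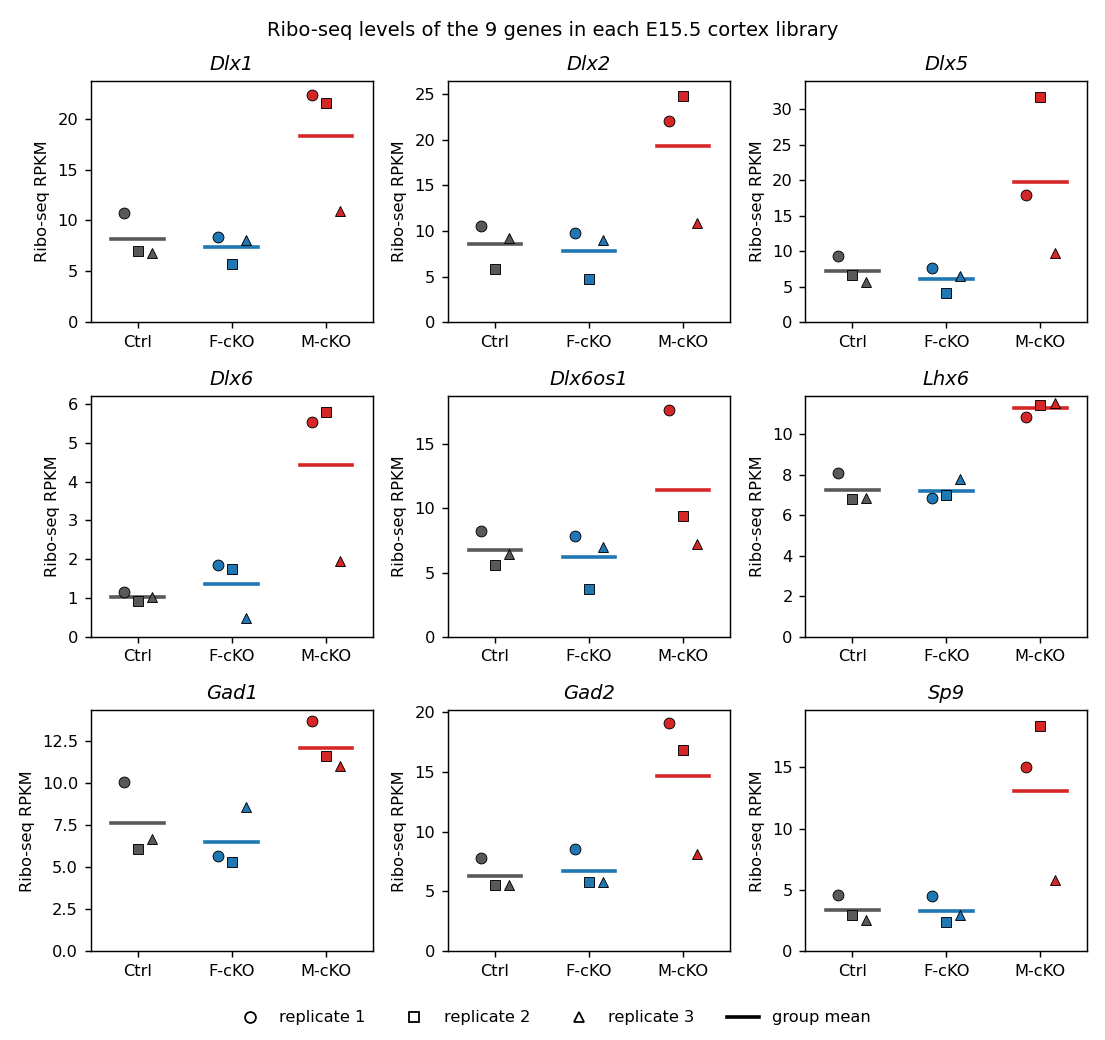
Ribo-seq level (RPKM, vertical axis from 0) of each of the 9 genes in the 3 libraries of Ctrl, *F*-cKO and *M*-cKO. Each symbol is a library and each line a group mean. *F*-cKO libraries overlap Ctrl in every panel, and *M*-cKO replicate 3 lies below the other *M*-cKO libraries in each panel except that of *Lhx6*.

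The Ribo-seq count depended on which libraries were in the fit. It was 8 without *M*-cKO replicate 3, 2 without *M*-cKO replicate 2 or Ctrl replicate 1, 1 without *M*-cKO replicate 1 and 0 without Ctrl replicate 2 or Ctrl replicate 3. Calls over all genes moved too, from 2093 with all libraries. In the order above they were 2547 of 14341, 1295 of 14336, 390 of 14318, 880 of 14339, 177 of 14307 and 461 of 14313. *Lhx6* lost its call without Ctrl replicate 2 (adjusted *P* = 0.0856) or Ctrl replicate 3 (0.055), and *Dlx6* without Ctrl replicate 1 (0.0727), Ctrl replicate 2 (0.0939), Ctrl replicate 3 (0.0702) or *M*-cKO replicate 1 (0.0563). *Dlx1*, *Gad2* and *Sp9* lost theirs without any library other than *M*-cKO replicate 3, with adjusted *P* of up to 0.148 for *Dlx1*, 0.143 for *Gad2* and 0.111 for *Sp9*. The 2 called without Ctrl replicate 1 therefore include a gene that was not called with all libraries. DESeq2 called 9, and 3129 of 14314 genes overall. With all genotypes in 1 fit the count was 0, and with *F*-cKO replicate 2 also left out, an alternative chosen after seeing the data, it was 6.

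Related genes were called in part in *M*-cKO footprints. Eminence patterning factors gave 2 higher of 7, *Gsx2* (log2 fold change 1.81 ± 0.42, adjusted *P* = 0.0315) and *Six3* (2.81 ± 0.66, 0.0324). Interneuron transcription factors gave 4 higher of 12, among them *Sox6* (0.56 ± 0.11), *Nr2f2* (1.09 ± 0.29) and *Npas3* (0.81 ± 0.11), and 1 lower, *Satb1* (−0.61). *Npas3* footprints were 7.49, 6.58 and 6.21 RPKM in Ctrl and 11.7, 11.7 and 11.8 in *M*-cKO, well apart. *Slc32a1* (1.32 ± 0.36) was higher and *Slc6a11* (−0.73 ± 0.20) lower among GABA handling genes. *Sst* (1.49 ± 0.31) was higher and *Npy* (−0.75 ± 0.17) and *Calb2* (−0.87 ± 0.17) lower among 9 migration and subtype genes. Each of these genes lost its call without Ctrl replicate 2, *Npas3* without that library alone (adjusted *P* = 0.0546). *Sst* was also lost without Ctrl replicate 3 or *M*-cKO replicate 1. *Sox6* and *Calb2* kept their calls when *M*-cKO replicate 2 or 3 was left out. *Gsx2*, *Six3*, *Nr2f2*, *Satb1*, *Slc32a1*, *Slc6a11* and *Npy* kept theirs only when *M*-cKO replicate 3 was.

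Striatal markers gave 6 higher of 12 in *M*-cKO footprints, with *Isl1* at 3.29 ± 0.73 and *Tac1* at 3.19 ± 0.68, and 1 lower, *Ppp1r1b*, at −1.09 ± 0.12. The higher count was 0 without Ctrl replicate 2 and 9 without *M*-cKO replicate 3. *Isl1* lost its call without any library other than *M*-cKO replicate 3, and *Tac1* without Ctrl replicate 2, Ctrl replicate 3 or *M*-cKO replicate 1. Their sum was 49.5, 45.7 and 48.8 RPKM in Ctrl, 58.5, 38.5 and 39.4 in *F*-cKO, and 78.5, 73.6 and 43.2 in *M*-cKO, led by *Meis2*. *M*-cKO replicate 3, lowest of its group in 8 of the 9 genes, was also the lowest of its group here. Pallial markers gave 1 higher, *Emx1* (0.59), and 1 lower of 12, with sums of 1046, 1032 and 1137 in Ctrl and 907, 860.4 and 1109.9 in *M*-cKO. Of 5 thalamus markers *Lhx9* (0.76) was higher. *Emx1* and *Lhx9* lost their calls without any library other than *M*-cKO replicate 3. Choroid plexus, meninges, microglia and endothelium markers, with 3, 5, 6 and 6 genes tested, had 0 called by edgeR, 0, 0, 0 and 2 with an unadjusted *P* below 0.05, and 0, 1, 0 and 0 called by DESeq2. Without *M*-cKO replicate 3, 1 meningeal gene was called lower, and pallial markers gave 3 higher and 2 lower. The part of these cell types in the result was not tested.

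Loss of *Fto* gave no called difference in footprints by edgeR over the 6 libraries of the comparison. In *F*-cKO against Ctrl, 0 of the 9 genes were called, as were 0 of 14335 genes (0%) by edgeR, with 318 genes at an unadjusted *P* below 0.05 and 6 called by DESeq2, none of them among the 9. Over all genes edgeR called 1 without *F*-cKO replicate 2 and 1 with all genotypes in 1 fit. Log2 fold changes of the 9 ran from −0.21 ± 0.28 for *Dlx5* to 0.44 ± 0.54 for *Dlx6*, with a median of −0.10 beside 0.05 over all genes tested. *Dlx2* footprints, for instance, were 9.78, 4.76 and 8.99 RPKM in *F*-cKO and *Gad2* footprints 8.52, 5.76 and 5.79. *F*-cKO overlapped Ctrl for all 9 genes, and 0 had each *F*-cKO library above each Ctrl library, a pattern of 3.71% of 21964 genes. *Fto* itself was not called in this comparison by edgeR, as given above, so the lack of a call here does not bound the difference.

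*F*-cKO replicate 2 had the fewest Ribo-seq reads and stood apart in other cell type markers. Its endothelial markers summed to 89.1 RPKM, led by *Cldn5*, against 4.64 to 9.71 in the other 8 libraries, and its pallial markers summed to 692 against 860.4 or more elsewhere. Its sum over the 9 genes was the lowest of the 9 Ribo-seq libraries, at 40.5 RPKM, beside 61.0 and 56.2 in the other *F*-cKO libraries. Its part in the result was not tested apart from leaving it out, after which edgeR still called 0 of the 9. Each of the other lists also had 0 genes called by edgeR in *F*-cKO footprints.

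For *M*-cKO against *F*-cKO footprints, 0 of the 9 genes and 0 of 14262 genes (0%) were called by edgeR, with 1154 genes at an unadjusted *P* below 0.05. Of the 9, 8 had an unadjusted *P* below 0.05, with log2 fold changes from 0.63 ± 0.17 for *Lhx6* to 2.01 ± 0.46 for *Sp9*. DESeq2 called 206 genes, 3 of them among the 9, *Dlx1*, *Dlx5* and *Sp9*. Among the 9 the count by edgeR was 0 whichever library was left out, and over all genes it was 5 without *F*-cKO replicate 2 and 3 without *M*-cKO replicate 3.

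Translational efficiency (TE), the change in footprints relative to the change in RNA, was tested as the interaction of assay and genotype over 12 libraries. In *M*-cKO against Ctrl, 0 of the 9 genes were called by edgeR, where 3.07% of 13208 genes were called, 2841 genes had an unadjusted *P* below 0.05 and DESeq2 called 1037. The nearest was *Lhx6*, with a log2 difference in TE of 0.50 ± 0.13 (adjusted *P* = 0.0508 in edgeR and 0.00981 in DESeq2), the 1 gene of the 9 called by DESeq2 and the 1 with an unadjusted *P* below 0.05. The ratio of mean RPKM to mean FPKM of *Lhx6* stood at 0.388 for Ctrl, 0.455 for *F*-cKO and 0.515 for *M*-cKO. The largest TE difference was that of *Sp9*, 0.93 ± 0.46 (adjusted *P* = 0.259), whose ratio was 0.712, 0.443 and 1.27. *Dlx6os1* had the lowest, −0.20 ± 0.37. The count was 1 without Ribo-seq Ctrl replicate 1, 1 without Ribo-seq *M*-cKO replicate 1, and 3 without Ribo-seq *M*-cKO replicate 3, namely *Dlx1* (0.83), *Lhx6* (0.46) and *Sp9* (1.26). Over all genes these refits called 221, 586 and 1054 in that order, beside 405 with all libraries. For comparison, the TE of *Mettl3* was lower in *M*-cKO (−0.99 ± 0.13, adjusted *P* = 0.00512).

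For *F*-cKO against Ctrl, 0 of the 9 genes and 0 of 13225 genes (0%) differed in TE by edgeR, with 1228 genes at an unadjusted *P* below 0.05 and 44 called by DESeq2. Over all genes edgeR called 15 without Ribo-seq *F*-cKO replicate 3 and 1 without Ribo-seq *F*-cKO replicate 2. Of the 9, 1 had an unadjusted *P* below 0.05, *Dlx6os1*, at −0.83 ± 0.30, and *Lhx6* was at the other end with 0.26 ± 0.18. For *M*-cKO against *F*-cKO, 0 of the 9 and 0 of 13162 genes (0%) were called by edgeR, with 541 at an unadjusted *P* below 0.05 and 18 called by DESeq2, and edgeR called 5 of all genes without Ribo-seq *F*-cKO replicate 2, 3 without Ribo-seq *M*-cKO replicate 3 and 1 without RNA-seq *F*-cKO replicate 1. There the differences of the 9 ran from 0.22 ± 0.17 for *Lhx6* to 1.60 ± 0.52 for *Sp9*, the 1 gene with an unadjusted *P* below 0.05.

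**Figure D4:**
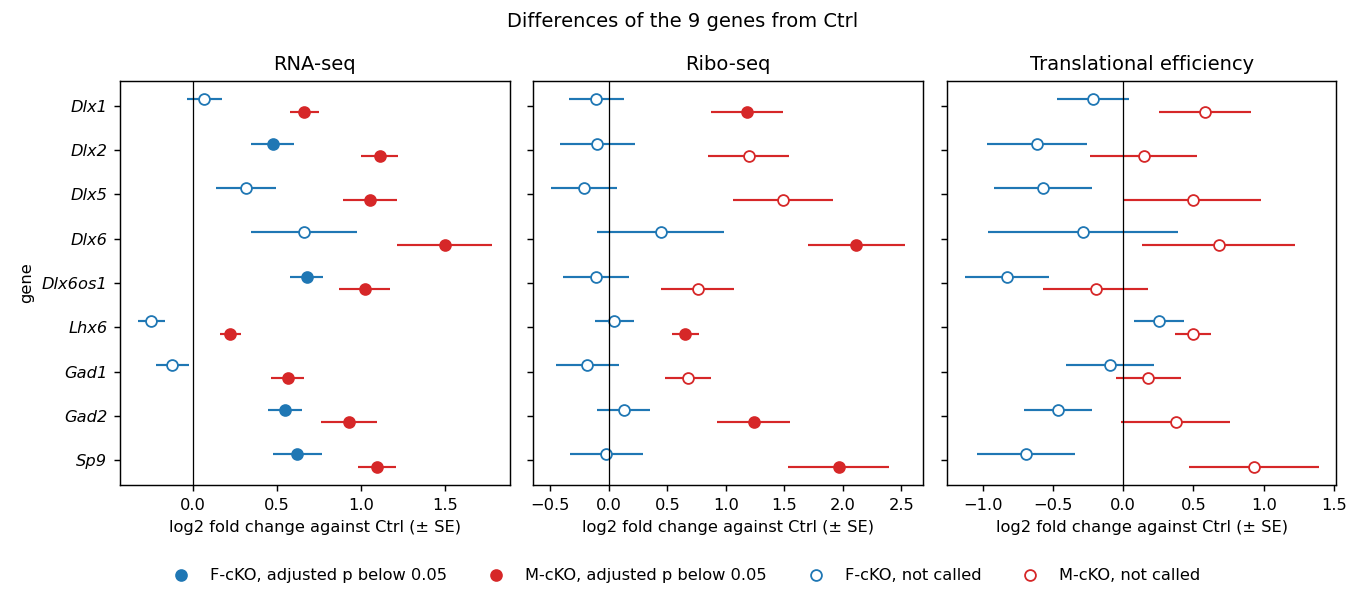
Log2 fold change against Ctrl (horizontal axis, ± SE) of the 9 genes in *F*-cKO and *M*-cKO for RNA-seq, Ribo-seq and translational efficiency. Filled points have an adjusted *P* below 0.05 and open points do not. All 9 genes are filled for *M*-cKO RNA, 5 for *M*-cKO footprints, 4 for *F*-cKO RNA and 0 elsewhere, in the edgeR test.

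The RNA levels of the 9 genes varied together from library to library. Over the 9 RNA-seq libraries the 36 pairs had Pearson correlations of log2 level from 0.361 (*Dlx6os1* and *Lhx6*) to 0.992 (*Dlx6os1* and *Gad2*), with a median of 0.880. After the mean of each genotype was removed the range was 0.272 (*Dlx6* and *Lhx6*) to 0.989 (*Dlx6os1* and *Gad2*), with a median of 0.812. In *M*-cKO replicate 3 was the lowest library for each of the 9, and in *F*-cKO replicate 1 was the highest for each. In Ribo-seq the 36 pairs ran from 0.554 (*Dlx6* and *Gad1*) to 0.985 (*Dlx1* and *Sp9*), with a median of 0.8345. After the genotype means were removed they ran from −0.25 (*Dlx6* and *Gad1*) to 0.949 (*Gad2* and *Sp9*), with a lower median of 0.555. These correlations describe 9 libraries per assay, whose genes share library and depth.

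Among 15127 other genes ranked by their RNA pattern over the 9 libraries, *Vax1*, a ventral forebrain homeobox gene, was closest to the mean pattern of the 9. Its Pearson correlation was 0.995 and its Spearman correlation 0.900 over 9 libraries, as a description. *Vax1* FPKM was 3.84, 3.72 and 3.87 in Ctrl, 6.79, 4.77 and 3.65 in *F*-cKO, and 10.3, 9.18 and 6.44 in *M*-cKO. Its likeness to the 9 follows from how it was picked. *Pid1* (0.983), *Tmem263* (0.980), *Gm14204* (0.978), *Btbd3* (0.974), *Ppm1a* (0.972), *Spin1* (0.972), *Kbtbd6* (0.969), *Ccdc6* (0.968) and *Npas3* (0.967) followed by Pearson correlation. Of the genes in the lists above, the dopamine receptor gene *Drd2* ranked 28, *Dlx1as* 34, *Slc32a1* 35 and *Gsx2* 43.

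The 9 genes lie on 2 chromosomes. *Gad2*, *Lhx6*, *Gad1*, *Dlx1*, *Dlx2* and *Sp9* are on chromosome 2 and *Dlx6os1*, *Dlx6* and *Dlx5* on chromosome 6 of mouse assembly GRCm38.p6. *Dlx1* (chr2:71528113-71533981) and *Dlx2* (chr2:71543408-71546754) are neighbours, with *Sp9* (chr2:73271926-73275771) farther along, and *Dlx6* (chr6:6863334-6867970) and *Dlx5* (chr6:6877801-6882068) form the other pair. The antisense gene *Dlx1as* shares 3344 bases with *Dlx1*, and *Gad1os* shares 2055 bases with *Gad1*. *Dlx1as* RNA was 7.53, 6.77 and 6.03 FPKM in Ctrl and 14.1, 11.9 and 10.2 in *M*-cKO (log2 fold change 0.82 ± 0.13, adjusted *P* = 0.00117), without overlap, and *Gad1os* was not tested. Since strand was not recorded, reads of *Dlx1* and *Dlx1as*, or of *Gad1* and *Gad1os*, may be mixed, and the *Dlx1as* values may not stand apart from those of *Dlx1*. *Dlx3* and *Dlx4*, the Dlx pair of another locus, had mean levels below 0.1 FPKM, and *Dlx4os* was at 0 in each RNA-seq library.

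Promoter windows of 250 bases were read from RefSeq sequences of GRCm38.p6, which held 10 windows for 7 of the 9 genes and none for *Dlx5* and *Dlx6*. Of the 10 windows 8 lie within the annotated span of their gene, and those of *Dlx2* and *Sp9* lie upstream of it. The homeodomain motif TAATTA, searched on both strands, was in 2 of the 10 windows, both of *Dlx6os1*, and in 4.84% of all 32851 windows. The GC box GGGCGG, the core of sites bound by Sp family factors and also searched on both strands, was in 5 of the 10 and in 32.7% of all windows. The windows of *Dlx2* and *Sp9* are shown because only these lie outside the annotated gene. The *Dlx2* window (chr2:71546755-71547004, minus strand) is 66.4% G or C and the *Sp9* window (chr2:73271676-73271925, plus strand) 62.4%, beside a median of 52.4% over all windows. Each is written 5′ to 3′ with the GC box in capitals, in both cases as its reverse complement, and a match is a description of these letters alone.
Dlx2: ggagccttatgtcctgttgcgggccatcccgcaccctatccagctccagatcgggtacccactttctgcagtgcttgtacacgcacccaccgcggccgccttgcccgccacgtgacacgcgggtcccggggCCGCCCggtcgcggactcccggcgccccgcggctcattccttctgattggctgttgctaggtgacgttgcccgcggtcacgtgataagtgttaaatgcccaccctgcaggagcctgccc
Sp9: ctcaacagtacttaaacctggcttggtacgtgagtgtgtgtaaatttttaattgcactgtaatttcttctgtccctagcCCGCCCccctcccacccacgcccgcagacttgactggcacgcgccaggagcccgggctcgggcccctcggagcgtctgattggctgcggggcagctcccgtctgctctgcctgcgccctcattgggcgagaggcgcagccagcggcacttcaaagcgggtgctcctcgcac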

How the data were processed

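RNA-seq and Ribo-seq of cortices at embryonic day 15.5 were grouped by the genotype and assay of the labels, with 3 libraries per group. The authors aligned RNA-seq reads with HISAT2 2.0.5 and Ribo-seq fragments with TopHat2 to mm10, and deposited raw read counts per gene, of which those of Ribo-seq were made with HTSeq. The deposited RNA-seq FPKM and Ribo-seq RPKM values are the authors' and were used as levels, unchanged. The RNA-seq kit keeps no strand and the counting strand is not stated. Symbols were matched through the RefSeq annotation of GRCm38.p6 for 54723 of 55153 Ensembl identifiers. *Dlx6os1* has 2 identifiers, and the lesser, with 2 RNA-seq counts in all libraries together, was not used. Of 54838 genes with deposited Ribo-seq counts, 40490 are blank in 8 libraries and were not tested in the fits. For 13 listed genes among them RPKM was compared by a two-sided exact permutation test.

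Each comparison was fitted over its 6 libraries in edgeR 4.0.16 under R 4.3.3, with filterByExpr (minimum count 10, minimum total 15), TMM scaling, the quasi-likelihood test and Benjamini-Hochberg adjustment over all genes tested. TE was tested over 12 libraries as the assay-by-genotype interaction. The fits were tested on simulated data. Alternatives were DESeq2 1.42.0, RLE scaling, no filter, all genotypes in 1 fit, a replicate block, each library left out, and limma 3.58.1 on log2 levels with pseudocounts of 1 and 0.1. Replicate numbers paired RNA-seq with Ribo-seq libraries within Ctrl (correlations of deviations from group means 0.172, 0.265 and 0.110) and within *M*-cKO (0.328, 0.103 and 0.190), each library correlating best with its own number, but not within *F*-cKO (−0.0186, −0.0469 and −0.276). This comes from the data, as the labels do not state it, and a block of these pairs was added for TE of *M*-cKO against Ctrl after seeing the data. Fits with all genotypes and 1 Ribo-seq library left out were added after seeing the data. Standard errors are those of the log2 fold change, and depth per library is given with the samples.

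Genes named are the 9 genes, *Fto* and *Mettl3*, listed genes that were called or most abundant in their list (not all of these are named, and list counts include the others), and the 10 other genes with mean CPM of at least 1 whose log2 CPM correlates best with the mean standardized pattern of the 9. Other listed genes are named where a count needs them, after their values were seen. The lists were other Dlx locus genes, ganglionic eminence patterning factors, interneuron transcription factors, GABA handling, interneuron migration and subtype genes, and markers of striatum, pallial excitatory lineage, thalamus, hypothalamus, choroid plexus, meninges, microglia and endothelium. The 9 genes and the lists were chosen with earlier results of these data known.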

Additional observations from a re-analysis of the deposited data

Results flagged for a closer look

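For 7 of the 9 genes the RNA difference from Ctrl was itself different between the knockouts, by the test of *M*-cKO against *F*-cKO in edgeR. The log2 difference was 0.58 for *Dlx1*, 0.62 for *Dlx2*, 0.73 for *Dlx5*, 0.83 for *Dlx6*, 0.46 for *Lhx6*, 0.68 for *Gad1* and 0.46 for *Sp9*. Both knockouts are set against the same Ctrl libraries, and each gene was higher in *M*-cKO.

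Some listed genes are blank in most columns of the Ribo-seq count table, and so were outside the test, but each *M*-cKO library has a higher RPKM than each Ctrl library. Mean RPKM in *M*-cKO was 0.143 for *Dlx3*, 0.720 for *Gsx1*, 0.234 for *Gbx2*, 0.207 for *Sim1* and 0.580 for *Nr5a1*. The log2 differences from Ctrl, with 0.1 added to RPKM, were 0.96, 0.74, 1.29, 1.24 and 1.76 in that order, each with a two-sided exact permutation *P* of 0.1, the smallest that 3 against 3 libraries can give. These genes were singled out after that separation was seen, and the separation by itself fixes the *P* at 0.1. Of the 8 other listed genes so compared, *Dlx4os* was separated in the same way and also had a *P* of 0.1 (0.56). Its levels were 0.0730, 0.0495 and 0.127 RPKM in *M*-cKO. *Gad1os*, *Nkx6-2*, *Lhx8*, *Drd2*, *Otp*, *Pomc* and *Kcnj13* had 1, 0.3, 0.2, 0.3, 0.2, 0.2 and 0.5. In each of the 5 genes *M*-cKO replicate 2 was the highest library of its group, at 0.316, 0.882, 0.416, 0.344 and 1.51 RPKM in the same order.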

How the results depend on the processing

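Members called, 4 in *F*-cKO RNA, ranged from 2 to 5 with each library left out and were 2 and 2 in limma with pseudocounts of 1 and 0.1. The 7 called between knockouts in RNA ranged from 3 to 9 and were 3 and 3 in limma. The 5 called in *M*-cKO footprints ranged from 0 to 8, were 9 in DESeq2, 0 with all genotypes in 1 fit, 6 with Ribo-seq *F*-cKO replicate 2 left out of that fit (chosen after seeing the data), and 1 and 1 in limma. The 0 called between knockouts in footprints became 3 in DESeq2, and the 0 called for TE in *M*-cKO ranged from 0 to 3 and became 1 in DESeq2. The causes were not tested. The 9 called in *M*-cKO RNA ranged from 8 to 9.

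Over all genes, calls in *F*-cKO RNA were 3576, and 1543 without Ctrl replicate 3, 1857 and 1966 in limma. Calls between knockouts in RNA were 4599, and 2767 without *F*-cKO replicate 2. Calls in *M*-cKO footprints were 2093, and 177 without Ctrl replicate 2, 35 with all genotypes in 1 fit (1261 with Ribo-seq *F*-cKO replicate 2 left out of it), and 562 and 689 in limma. Calls for TE in *M*-cKO were 405, and 65 without RNA-seq *M*-cKO replicate 1, 1054 without Ribo-seq *M*-cKO replicate 3 and 11 with all genotypes in 1 fit (230 with that library left out).

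Log2 differences of uncalled genes that changed sign are given as the range with each library left out. In *F*-cKO RNA they were −0.0645 to 0.17 for *Dlx1* and −0.07002 to 0.0996 for *Mettl3*. In *F*-cKO footprints they were −0.23 to 0.16 for *Dlx1*, −0.30 to 0.11 for *Dlx2*, −0.36 to 0.0377 for *Dlx5*, −0.27 to 0.11 for *Dlx6os1*, −0.00378 to 0.16 for *Lhx6* (limma −0.00107 and −0.000927), −0.36 to 0.0902 for *Gad1*, −0.0293 to 0.34 for *Gad2*, −0.27 to 0.28 for *Sp9* and −0.0628 to 0.0919 for *Mettl3*. For TE in *F*-cKO they were −0.33 to 0.0315 for *Dlx1*, −0.63 to 0.15 for *Dlx6*, −0.35 to 0.15 for *Gad1* and −0.13 to 0.0258 for *Mettl3*. For TE in *M*-cKO they were −0.13 to 0.41 for *Dlx2*, −0.081 to 0.80 for *Dlx5*, −0.63 to 0.035 for *Dlx6os1* and −0.28 to 0.00516 for *Fto*.

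Replicate numbers did not pair libraries of different genotypes, whose same-numbered deviations correlated between −0.278 and 0.163. With replicate number as a block, calls among the 9 genes were 4 in *F*-cKO RNA, 9 in *M*-cKO RNA, 7 between knockouts in RNA and 6 in *M*-cKO footprints, *Gad1* being the addition. Over all genes the block gave 2145 calls in *F*-cKO RNA and 1313 in *M*-cKO footprints. With it, and with the pairing of assays within each genotype as a block (added after seeing the data), 0 of the 9 genes were called for TE in *M*-cKO. The pairing of assays gave 456 calls over all genes beside 405 and an adjusted *P* of 0.0745 for *Lhx6*, and changed no call among the 9 genes, *Fto* and *Mettl3*. Precision is limited by 3 libraries per group.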
